A study of Mus musculus with 4 samples.

Results

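The 10 genes described here take part in cholesterol efflux from myeloid cells, in their lipid uptake or in the control of lipid genes: Nr1h3, Abca1, Abcg1, Apoe, Pltp, Mylip, Srebf1, Lpl, Cd36 and Msr1. They were chosen by name, with earlier results of these data known, and all 10 were found among the 15881 genes of the deposited tables, in both tables. The cells were dendritic cells grown from bone marrow of C57BL/6 mice aged 8 weeks. There were 4 libraries, 1 per group, in the order KO after IFN-gamma and LPS, WT after IFN-gamma and LPS, KO unstimulated and WT unstimulated. KO cells were GOLPH2-/- and lacked the Golgi membrane protein encoded by Golm1, and WT cells carried no genetic change that the labels name. Stimulated cells received IFN-gamma for 16 h and were then exposed for 4 h to LPS, a component of the bacterial outer membrane. The sources used here do not say which part of Golm1 was removed, how many mice gave a culture or which growth factors were used.

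Nr1h3 encodes the liver X receptor alpha (LXR alpha), a nuclear receptor that binds oxysterols, which are oxidised forms of cholesterol. With a partner of the RXR family it binds DNA at a pair of similar short sites and induces genes that remove cholesterol from the cell. Its known targets in macrophages include Abca1 and Abcg1, which pass cholesterol to acceptors outside the cell, Apoe, an acceptor protein, Pltp, which moves phospholipid between lipoproteins, Mylip, a ubiquitin ligase that limits lipoprotein uptake, and Srebf1, which drives fatty acid synthesis. Lpl, also a target, releases fatty acids from lipoprotein triglyceride, and the scavenger receptors encoded by Cd36 and Msr1 take up oxidised and modified lipoproteins.

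The receptor's best known binding sites lie just upstream of Abca1 and Srebf1, and their letters are shown here because they are the most direct sequence link among the 10 genes. Promoter windows of 300 bases (250 before to 50 after a gene start, RefSeq, GRCm38.p6) were at hand for 7 of the 10 genes in 12 windows. Abcg1, Lpl and Msr1 had no window and were not searched. The motif searched was GGTTACT followed, after a gap of 2 bases, by CGGTCA, on both strands. Its 13 fixed letters are those that the Abca1 and Srebf1 sites share, so matches in these genes were set by the choice of motif. It was found in 3 of 32851 windows (0.0091%), those of Abca1, Srebf1 and Fasn, the last encoding fatty acid synthase. Capitals mark the motif as it reads on the gene's strand, where it lies in reverse.
Abca1: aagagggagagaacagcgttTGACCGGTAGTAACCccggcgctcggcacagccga
Srebf1: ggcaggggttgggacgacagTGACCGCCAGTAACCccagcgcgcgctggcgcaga
Fasn: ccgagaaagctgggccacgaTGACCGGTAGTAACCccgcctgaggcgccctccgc
The Abca1 stretch is chr4:53159928-53159982, with the motif 67 to 53 bases before the gene start. The Srebf1 stretch is chr11:60210619-60210673, with the motif 182 to 168 bases before one of its starts, and the Fasn stretch is chr11:120824738-120824792. All 3 genes lie on the minus strand, and each stretch is written from 5′ to 3′ on that strand. The looser form, GGTTA and GGTCA with a gap of 5 bases, was found in 16 windows (0.049%) and takes in the first form. Abca1 and Srebf1 were again the matches among the 7 genes searched. The perfect repeat of GGTCA with the same gap was in 25 windows (0.076%), none of them of the 7 genes searched. The shortened first form, GGTTACT and CGG with a gap of 2 bases, was in 9 windows (0.027%), and Golm1 was among their genes, a match picked out after the search. As given below, Abca1 was called lower in KO cells in both states, and Srebf1 and Fasn were called in neither. Whether the receptor used these sites in the cells was not tested.

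The authors' deposited tables give, for each state, a log2 ratio of KO over WT and a p-value per gene. Both columns together were found to fix the whole read numbers of 99.3% of the genes in stimulated and 99.2% in unstimulated cells, including all 10 genes here, and the depths of 37.0 and 38.0 M reads (M, 1e6) for the KO and WT libraries of stimulated cells and 39.9 and 34.9 M reads for the KO and WT libraries of unstimulated cells. Levels are given as CPM, the reads of a gene per 1e6 reads of its library, for which the stimulated libraries were multiplied by 1.11, so that the median gene had the same level in both states. Ratios are log2 of KO over WT after correction for depth. Errors written ± are standard errors of read counting and hold no spread between cultures or mice. A gene counted as called when the authors' p-value, after Benjamini-Hochberg adjustment over all genes of its table, fell under 0.001. Such a call compares a pair of libraries and has no replicate check. In these bulk libraries, fewer cells of a type and less RNA per cell cannot be told apart. Golm1 stood at −2.00 ± 0.10 in stimulated and −2.09 in unstimulated cells, where its p was at the highest value deposited and gives no counting error, so the libraries labelled KO were the low ones in both states.

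In the stimulated libraries 6 of the 10 genes were called, Cd36 and Apoe higher in KO cells and Abca1, Nr1h3, Mylip and Lpl lower. Among all 15310 genes measured in stimulated cells, 5.36% were called higher and 6.54% lower. In the unstimulated libraries 5 were called, Cd36, Msr1 and Apoe higher and Abca1 and Lpl lower, where 4.7% of 15394 genes were called higher and 4.27% lower. All of the differences were small. None of the 10 genes reached 1.5-fold in either state, and the largest was that of Nr1h3 in stimulated cells, at 1.39-fold. Since well-covered genes are called more readily, the shares among genes counted at least as precisely as the least precise of the 10 are the closer comparison. They were 20.7% called of 8246 genes in stimulated and 15.0% of 8711 in unstimulated cells. The median size of the ratio, regardless of sign, was 0.19 over the 10 genes against 0.088 over those 8246 genes, and 0.11 against 0.074 over the 8711. With sign, the median over the 10 genes was −0.055 in stimulated and 0.036 in unstimulated cells, and over all genes 0.005 and 0.001. The 10 genes therefore had no common direction.

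**Figure D1:**
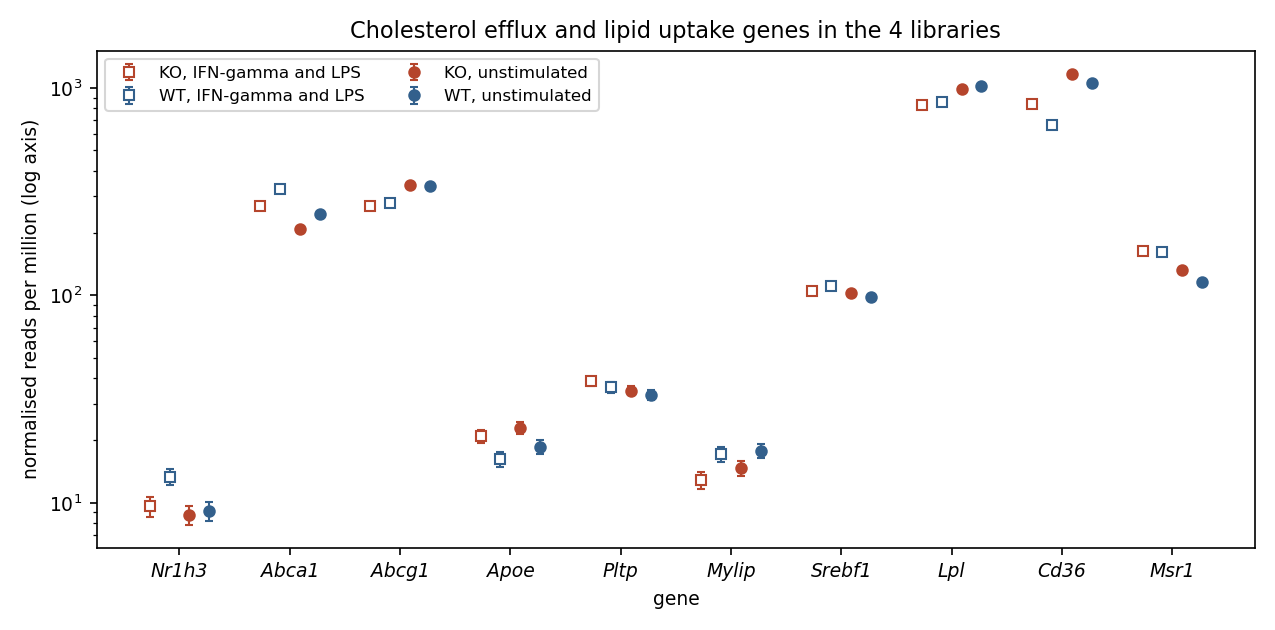
Normalised reads as CPM (log axis) of each gene in KO and WT cells after IFN-gamma and LPS (open squares) and unstimulated (filled circles); bars are 95% counting intervals of 1 library each. Cd36 and Lpl lie between 663 and 1167 and Nr1h3, Mylip and Apoe between 8.71 and 22.9.

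Levels differed far more between the genes than between the genotypes. Per kilobase of exon (RPKM), Cd36 had the highest level in all 4 libraries, at 233 in KO and 185 in WT stimulated cells and at 325 in KO and 294 in WT unstimulated cells. Lpl came next, at 78.8 and 82.0 RPKM in KO and WT stimulated cells and 94.2 and 97.6 in KO and WT unstimulated cells, and Abcg1 followed at 36.9 and 38.3 RPKM in KO and WT stimulated cells and 46.5 and 46.4 in KO and WT unstimulated cells. Among 10621 genes, Cd36 lay at percentiles 98.2 to 99.3 over the 4 libraries, Lpl at 94.8 to 96.5 and Abcg1 at 88.1 to 91.7. Abca1 and Msr1 came next, in an order that differed between libraries. In KO stimulated cells their RPKM of 26.0 and 25.9 differed by 0.2 counting errors, whereas in WT stimulated cells Abca1 (31.6) lay above Msr1 (25.6) by 12.8. In KO unstimulated cells Msr1 (21.0) lay above Abca1 (20.2) by 2.2 counting errors, and in WT unstimulated cells Abca1 (23.9) lay above Msr1 (18.3) by 14.0. Srebf1, Pltp and Apoe followed in this order in every library. Mylip and Nr1h3 were lowest, at 3.98 and 3.83 RPKM in KO and 5.31 and 5.31 in WT stimulated cells, 0.5 and 0.0 counting errors apart, against 4.53 and 3.46 in KO and 5.52 and 3.63 in WT unstimulated cells. The median of the 10621 ranked genes was 6.44 and 6.46 RPKM in KO and WT stimulated cells and 6.28 and 6.32 in KO and WT unstimulated cells. Nr1h3 lay below this median in all 4 libraries, at percentiles 33.9 to 44.7. The ranking covered only part of the 14653 genes recovered in all 4 libraries, so the place of Nr1h3 among all transcripts is not given.

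Nr1h3 (chromosome 2, 91184061 to 91202834, minus strand) was called lower in KO cells in the stimulated state and was not called in the unstimulated one. It had 321 reads in KO and 457 in WT stimulated cells, which is 9.62 and 13.4 normalised CPM and a ratio of −0.47 ± 0.10. In unstimulated cells it had 347 reads in KO and 319 in WT, or 8.71 and 9.14 CPM, at −0.07 ± 0.11. The WT stimulated library was thus the high one, and the other 3 lay between 8.71 and 9.62 CPM. Of the 8246 genes compared by precision, 1.6% had a ratio larger in size, regardless of sign, than that of Nr1h3 in stimulated cells.

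Abca1 (chromosome 4, 53030787 to 53159895, minus strand), the gene whose loss causes Tangier disease in humans, was called lower in KO cells in both states by nearly the same amount. It had 8974 reads in KO and 11204 in WT stimulated cells, or 269 and 328 CPM (−0.28 ± 0.020). In unstimulated cells it had 8333 reads in KO and 8648 in WT, or 209 and 248 CPM (−0.24 ± 0.022). KO cells therefore held 82.1% and 84.4% of the WT level. Abcg1 (chromosome 17, 31057675 to 31117988, plus strand), the other cholesterol transporter, was called in neither state. It had 269 and 279 CPM in KO and WT stimulated cells (−0.05 ± 0.021, 8986 and 9552 reads) and 339.7 and 338.8 in KO and WT unstimulated cells (0.00 ± 0.018, 13538 and 11828 reads). Its 95% counting intervals, from −0.094 to −0.011 and from −0.032 to 0.039, lie apart from those of Abca1, from −0.324 to −0.244 and from −0.288 to −0.201.

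Of the lipoprotein genes, Apoe (chromosome 7, 19696109 to 19699188, minus strand) was called higher in KO cells in both states. It had 700 reads in KO and 557 in WT stimulated cells, or 21.0 and 16.3 CPM (0.37 ± 0.082). In unstimulated cells it had 914 reads in KO and 652 in WT, or 22.9 and 18.7 CPM (0.30 ± 0.073), so both KO libraries lay above both WT libraries. Pltp (chromosome 2, 164839518 to 164857711, minus strand) was called in neither state, with 38.5 and 36.0 CPM in KO and WT stimulated cells (0.10 ± 0.058) and 34.8 and 33.2 in KO and WT unstimulated cells (0.07 ± 0.057). Both ratios of Pltp were within 2 counting errors of 0.

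Mylip (chromosome 13, 45389742 to 45412022, plus strand) had ratios below 0 in both states, as Abca1 did, at far fewer reads. It had 429 reads in KO and 587 in WT stimulated cells, or 12.9 and 17.2 CPM (−0.42 ± 0.091), and was called lower. In unstimulated cells it had 584 and 623 reads in KO and WT, or 14.7 and 17.9 CPM (−0.28 ± 0.083). It missed the threshold there, with an adjusted p of 0.0054 from the authors' test across all genes. Both WT libraries of Mylip lay above both KO libraries. Srebf1 (chromosome 11, 60199089 to 60222581, minus strand) was called in neither state. It had 105 and 111 CPM in KO and WT stimulated cells (−0.08 ± 0.034, 3499 and 3788 reads) and 103 and 97.8 in KO and WT unstimulated cells (0.07 ± 0.033, 4098 and 3415 reads).

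**Figure D2:**
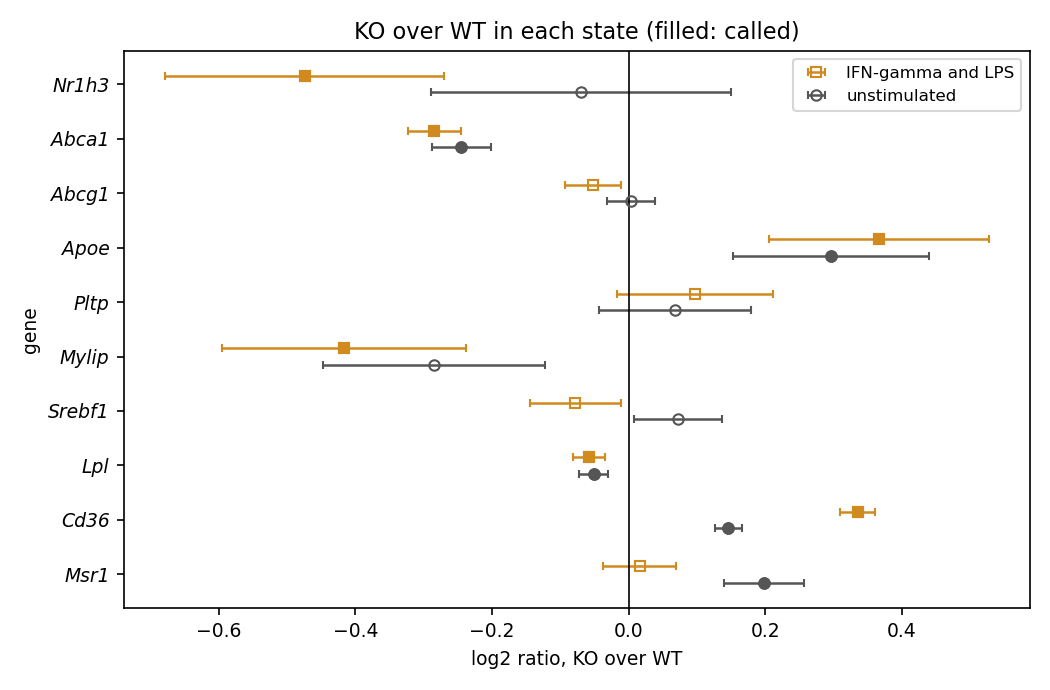
Log2 ratio of KO over WT for each gene after IFN-gamma and LPS (squares) and unstimulated (circles), filled where the gene was called; bars are 95% counting intervals. Abca1 and Mylip lie left of 0 in both states and Apoe and Cd36 right of it, and Nr1h3 and Msr1 were called in 1 state each.

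Among the uptake genes, Cd36 (chromosome 5, 17781690 to 17888801, minus strand), which binds oxidised LDL and long-chain fatty acids, was called higher in KO cells in both states, more so after stimulation. It had 27878 reads in KO and 22663 in WT stimulated cells, or 836 and 663 CPM (0.33 ± 0.013). In unstimulated cells it had 46505 reads in KO and 36805 in WT, or 1167 and 1054 CPM (0.15 ± 0.010). Msr1 (chromosome 8, 39581685 to 39642673, minus strand), which encodes scavenger receptor A, was called higher in KO cells in the unstimulated state and was not called in the stimulated one. It had 164 and 163 CPM in KO and WT stimulated cells (0.02 ± 0.027, 5480 and 5558 reads) against 133 and 116 in KO and WT unstimulated cells (0.20 ± 0.030, 5299 and 4045 reads). Lpl (chromosome 8, 68880491 to 68907448, plus strand) was called lower in both states, and its many reads made a very small difference countable. It had 826 and 860 CPM in KO and WT stimulated cells (−0.06 ± 0.012, 27548 and 29396 reads) and 987 and 1022 in KO and WT unstimulated cells (−0.05 ± 0.011, 39326 and 35690 reads). KO cells held 96.1% and 96.5% of the WT level of Lpl. Of the genes compared by precision, 65.0% and 63.5% had a ratio larger in size, regardless of sign.

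The deposited tables do not compare stimulated with unstimulated cells, but the recovered reads allow both genotypes to be set against themselves. None of the 10 genes changed by 2-fold in either genotype. Over 11120 genes with a mean of at least 50 reads, 2.92% were 2-fold or more higher and 0.935% lower after stimulation in KO cells, and 3.52% higher and 0.953% lower in WT cells. Cd36 stood lowest relative to the median gene, at −0.48 ± 0.011 in KO and −0.67 ± 0.012 in WT cells. Abcg1 was at −0.33 ± 0.020 in KO and −0.28 ± 0.020 in WT cells, and Lpl at −0.26 ± 0.011 and −0.25 ± 0.011. Abca1, at 0.36 ± 0.022 in KO and 0.40 ± 0.021 in WT cells, and Msr1, at 0.31 ± 0.028 and 0.49 ± 0.030, were above 0. The transporters Abca1 and Abcg1 thus stood on opposite sides of the median gene in both genotypes, and so did the scavenger receptors Msr1 and Cd36. Apoe was at −0.13 ± 0.072 and −0.20 ± 0.083 in KO and WT cells, Mylip at −0.19 ± 0.092 and −0.06 ± 0.083, Pltp at 0.15 ± 0.056 and 0.12 ± 0.059, and Srebf1 at 0.03 ± 0.033 and 0.18 ± 0.034. With scaling by library totals alone, every one of these values is lower by 0.15, which turns Pltp to 0 or below in both genotypes and Srebf1 to −0.12 in KO cells, and Nr1h3 (0.14 ± 0.11 in KO and 0.55 ± 0.10 in WT cells) to −0.01 in KO cells.

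**Figure D3:**
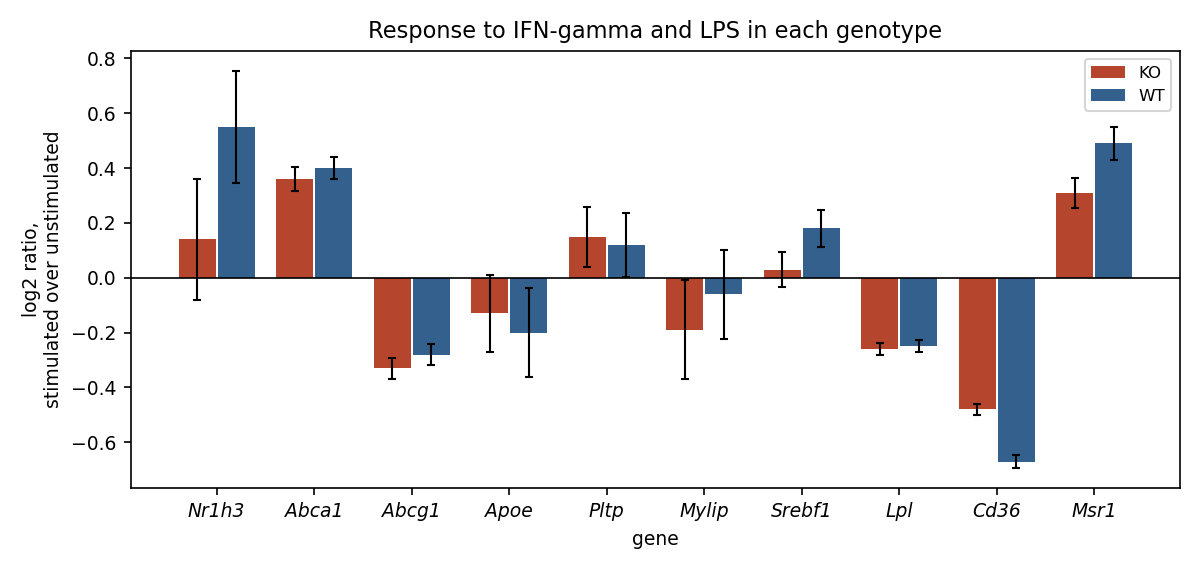
Log2 ratio of stimulated over unstimulated cells for each gene in KO and WT cells, relative to the median gene; bars start at 0 and error bars are 95% counting intervals. Cd36, Abcg1 and Lpl lie below 0 in both genotypes and Abca1 and Msr1 above, and the genotypes stand furthest apart for Nr1h3.

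The KO over WT ratio of the stimulated cells less that of the unstimulated cells is also the difference between the genotypes in their response. It was past 1.96 counting errors for 5 of the 10 genes, 1 higher and 4 lower, beside 8.7% higher and 9.42% lower among 14749 genes. Those 14749 genes were not limited by precision, and well-covered genes pass this limit more readily. Shares among equally precise genes are not given. Of the 10 genes, Cd36 was the higher one, at 0.19 ± 0.016. Nr1h3 was at −0.40 ± 0.15, Msr1 at −0.18 ± 0.041, Srebf1 at −0.15 ± 0.047 and Abcg1 at −0.06 ± 0.028. For Abca1 (−0.04 ± 0.030), Mylip (−0.13 ± 0.12), Apoe (0.07 ± 0.11), Pltp (0.03 ± 0.081) and Lpl (−0.01 ± 0.016) the states were within that limit. With 1 library per group there are no residual degrees of freedom, and the differences between states have no test.

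The wider lipid pathways were counted from lists that were likewise made with earlier results known. Of the receptor's partners and cofactors, 0 of 9 were called higher and 2 lower in stimulated cells, the coactivator gene Ncoa2 (−0.23 ± 0.039) and the corepressor gene Ncor1 (−0.20 ± 0.025), with a list median of −0.12. In unstimulated cells the coactivator gene Ncoa3 (0.19 ± 0.027) was called higher and Rxrb (−0.17 ± 0.042), which encodes an RXR partner, lower, and the median was −0.01. Nr1h2, which encodes LXR beta, was called in neither state (−0.06 ± 0.025 and 0.04 ± 0.027). At 194 and 202 CPM in KO and WT stimulated cells and 158 and 154 in KO and WT unstimulated cells, its level lay far above that of Nr1h3.

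Among 12 further LXR targets, Smpdl3a (0.16 ± 0.039) was the single gene called in stimulated cells, and Arl4c (−0.22 ± 0.015) the single one in unstimulated cells; the list medians were −0.01 and 0.04. In the cholesterol synthesis list, Acat2 (0.49 ± 0.11) and Mvd (0.27 ± 0.050), which encode enzymes of the pathway, were called higher in KO unstimulated cells and were not called in stimulated cells (0.26 ± 0.15 and 0.18 ± 0.063). The list medians, 0.04 over 27 genes in stimulated and 0.01 over 26 in unstimulated cells, lay close to those of all genes. In fatty acid synthesis, 1 of 11 genes was called in stimulated cells, the malic enzyme gene Me1, which was lower (−0.42 ± 0.10). Me1 was lower in unstimulated cells too (−0.41 ± 0.10), where Acly (0.10 ± 0.023) was called higher. Fasn was at 0.01 ± 0.063 and 0.14 ± 0.055 and was called in neither state.

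Other receptors for lipoproteins and lipids went both ways, with 3 of 12 called higher and 4 lower in stimulated cells and 4 of 11 each way in unstimulated cells. Marco, a scavenger receptor of macrophages, was the lowest in both states (−0.36 ± 0.051 and −0.45 ± 0.052), and Olr1, which encodes a receptor for oxidised LDL, was called higher in both (0.19 ± 0.019 and 0.10 ± 0.020). The scavenger receptor genes Msr1 and Cd36 therefore had ratios opposite to Marco wherever they were called. In cholesterol storage and transport, 3 of 19 genes were called higher and 2 lower in stimulated cells, and 3 higher and 1 lower in unstimulated cells. Ch25h, whose enzyme makes the LXR ligand 25-hydroxycholesterol, had the largest ratio among the called genes of these lists. It had 165 reads in KO and 79 in WT stimulated cells, or 4.95 and 2.31 CPM (1.10 ± 0.19), and 414 reads in KO and 227 in WT unstimulated cells, or 10.4 and 6.50 CPM (0.68 ± 0.12). Both KO libraries were above the WT library of their state. Stard3, a cholesterol carrier of late endosomes, was called lower in stimulated cells (−0.24 ± 0.046).

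Of 16 genes of PPAR signalling and fatty acid handling, 3 were called higher and 3 lower in stimulated cells and 3 higher and 1 lower in unstimulated cells. The fatty acid binding protein gene Fabp5 was higher in both (0.20 ± 0.015 and 0.20 ± 0.013), and the acyl-CoA synthetase gene Acsl1 was lower in both (−0.25 ± 0.013 and −0.53, the second likewise without a counting error). Pparg, which encodes a known activator of Cd36 and Nr1h3, was called in neither state (0.21 ± 0.20 and 0.02 ± 0.13). Among 9 other lipases and partners of lipoprotein lipase, 2 were called higher in stimulated cells, Lipe (0.37 ± 0.069) and Mgll (0.29 ± 0.034), and Lipe alone in unstimulated cells (0.47 ± 0.060). The hormone-sensitive lipase encoded by Lipe and the lipase encoded by Mgll break down stored fat inside the cell.

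**Figure D4:**
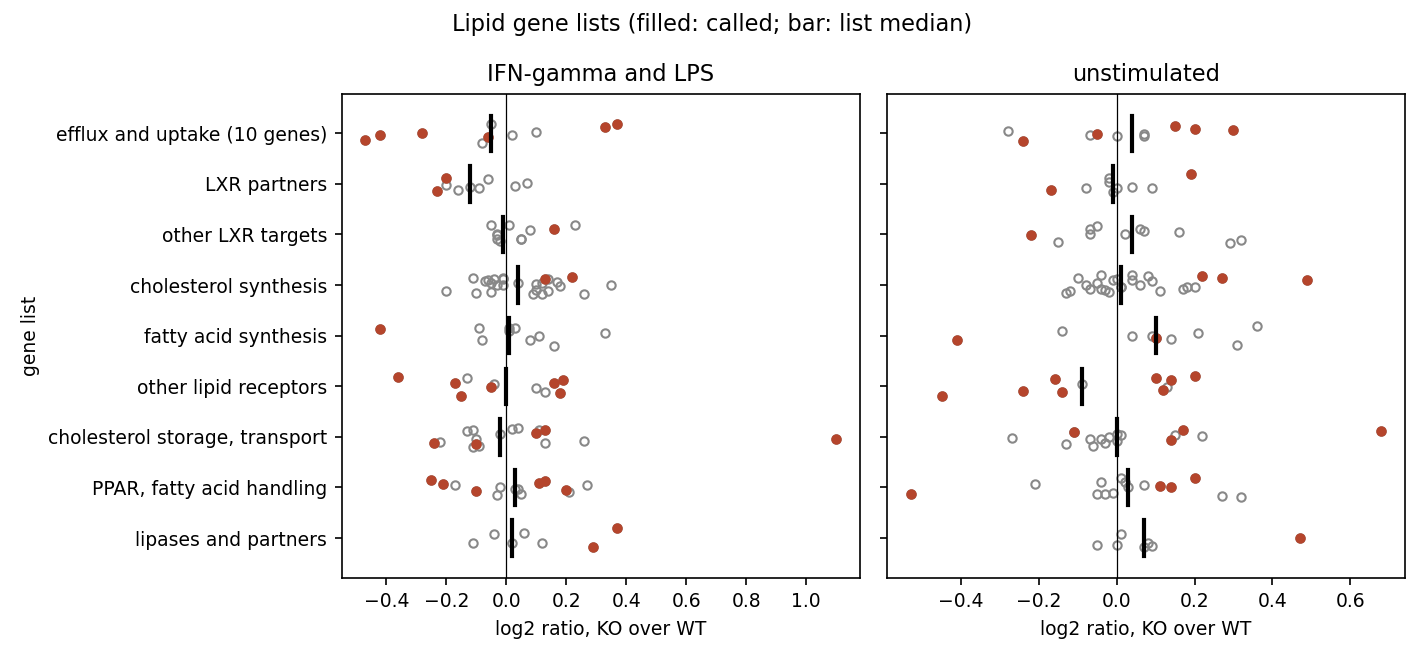
Log2 ratio of KO over WT for the genes of each lipid list in stimulated (left) and unstimulated cells (right), leaving out genes with a counting error above that of 50 reads per library; filled points were called and black bars are medians over all measured genes of a list. The medians lie between −0.12 and 0.10, and Ch25h stands furthest from 0 among the called genes, at 1.10 on the left and 0.68 on the right.

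Several of the 10 genes are typical of macrophages, so markers of the cell types that such cultures can hold are given beside them. Summed over the 14 macrophage markers recovered in all 4 libraries, the level was 3728 CPM in KO and 3467 in WT stimulated cells and 3907 in KO and 3732 in WT unstimulated cells. Of all 17 measured, 9 were called higher and 2 lower in stimulated cells and 11 and 2 in unstimulated cells, C1qc among the higher ones (0.65 ± 0.15 and 0.74 ± 0.14). The lower ones were Csf1r (−0.15 and −0.27) and Cd14 (−0.27 and −0.51), and Cd14, Lyz2 and Gpnmb are not in the sums. Dendritic cell markers (12 recovered) summed to 2290 and 2092 CPM in KO and WT stimulated cells and 1603 and 1428 in KO and WT unstimulated cells, with 6 of 13 called higher and 0 lower in each state. Among them Ccr7 had 934 and 906 CPM in KO and WT stimulated cells and 708 and 669 in KO and WT unstimulated cells. The macrophage marker Emr1 (F4/80) had 1190 and 1090 CPM in KO and WT stimulated cells and 1050 and 959 in KO and WT unstimulated cells. Both genes were picked after their values were seen, and other dendritic cell markers had far lower levels. Which cell types the cultures held was not tested. Stromal markers (11 recovered) summed to 163 and 94.3 CPM in KO and WT stimulated cells and 110 and 77.7 in KO and WT unstimulated cells. Of these, Thy1 made up 75.7 and 56.8 CPM in KO and WT stimulated cells. In stimulated cells 6 of 11 stromal markers were called higher, among them Col3a1 with 226 reads in KO and 3 in WT and Col1a1 with 367 and 33, and 1 lower, Pdgfrb (−0.74 ± 0.15); in unstimulated cells 4 of 12 were called higher and 0 lower. For neutrophil markers (6 recovered) the sums were 383 and 436 in KO and WT stimulated cells and 249.5 and 314 in KO and WT unstimulated cells, and for lymphocyte markers (8 recovered) 15.0 and 9.27 and then 15.6 and 9.88. Most of the neutrophil sum was Lcn2, at 309 and 364 CPM in KO and WT stimulated cells and 163 and 211 in KO and WT unstimulated cells. Mmp8 was at 66.7 and 63.7 CPM in KO and WT stimulated cells and 82.1 and 97.6 in KO and WT unstimulated cells, called lower in the unstimulated state. Lcn2 was the single neutrophil marker called in stimulated cells. The macrophage, dendritic, stromal and lymphocyte sums were thus higher in the KO libraries, and the neutrophil sum was lower. In the same libraries Cd36 and Apoe were called higher in both states, and Abca1 and Lpl were called lower in both. The fat cell marker Adipoq had 1 read in each unstimulated library and was not listed for stimulated cells, and Cd209a, Ly6g, Elane and Ncr1 were listed in neither table. The part of cell content in the ratios of the 10 genes was not tested.

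The genes nearest in pattern were looked for among 10425 named genes outside the list, by the distance between their pairs of ratios. For Nr1h3, the gene with the largest called ratio in stimulated cells, they were Gbp10 (−0.49 in stimulated and −0.08 in unstimulated cells), Tmem140 (−0.50 and −0.06) and Enpp4 (−0.48 and −0.04), at distances of 0.019 to 0.026. For Apoe, which had the largest called ratio in unstimulated cells, they were Ifi30 (0.36 and 0.28), Zyx (0.36 and 0.28) and Park7 (0.35 and 0.29), at 0.014 to 0.017. Each gene's pattern rests on 4 libraries. All of these distances were smaller than the counting errors in stimulated and unstimulated cells of Nr1h3 (0.10 and 0.11) and Apoe (0.082 and 0.073). Which genes are truly nearest is therefore not resolved.

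Gene positions are those of GENCODE M21 (GRCm38), and all 10 genes are protein-coding. The annotated span of 4 of them overlaps another gene. Pltp overlaps Ctsa and Srebf1 overlaps Rai1, each a protein-coding gene on the opposite strand. Abcg1 and Nr1h3 overlap non-coding genes, each with one on its own strand. Srebf1 also overlaps the microRNA genes Mir6921 and Mir6922 on its own strand. The labels' protocols name a strand-specific library kit, but the sources used here do not say whether counting used strand, so reads of these pairs may not have been separated. None of the 6 genes called in stimulated cells other than Nr1h3 has such an overlap.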

How the data were processed

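Messenger RNA of 4 libraries was sequenced, per the labels' protocols from strand-specific TruSeq preparations. The submitters' processing notes name HTSeq 0.6.0, FastQC 0.10.1 and the build mm10; for aligner, annotation and test the version and name are not stated. The authors deposited 2 tables with, per the file headers, a log2 fold change of KO over WT per gene and a log10 p-value, which from its values is −log10 p as deposited, with highest values of 150 in stimulated and 100 in unstimulated cells.

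The deposited log2 values were found to be logarithms of ratios of whole read numbers, uncorrected for depth. A fraction in lowest terms was read from each ratio (9 decimals). The deposited p-values followed a normal test of the log ratio, with the error set by the reads of both libraries. Its zero point (−0.036 in stimulated, 0.1913 in unstimulated cells) and both library totals were fitted so that the multiplier of each fraction came out whole. Where the multiplier could be resolved, 99.61% of 15236 genes in stimulated and 99.58% of 15322 in unstimulated cells gave a whole one within 0.05. The 50 genes in stimulated and 51 in unstimulated cells at the highest −log10 p have none. This reconstruction is derived from the deposited values and is not a statement of the authors. Ratios were reduced by the zero point, and p-values were adjusted over all genes of a table. The design assumed no read numbers; the comparison of stimulated with unstimulated cells within a genotype was added after seeing the data. The members, lists and tests were chosen with earlier results of these data known. Named genes were the 10 members, the called genes with the largest ratios of each list (up to 4 per list and state), nearest genes by distance, and Nr1h2, Pparg, Fasn, Olr1, Emr1, Ccr7, Csf1r, Cd14, Lyz2, Gpnmb, Pdgfrb, Thy1 and Mmp8, given for their role or share of a sum after their values were seen; some list genes are not reported here.

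On simulated reads with 200 changed genes, 100.0% (stimulated, 15200 genes) and 99.99% (unstimulated, 15275 genes) of the recovered genes had their true reads. At 1.5-fold, 78.0% of changed genes in stimulated and 87.0% in unstimulated cells were called, and 0 unchanged genes were; no noise beyond counting was simulated. Python 3.11.15, numpy 2.4.6, pandas 2.3.3, scipy 1.17.1 and matplotlib 3.10.9 were used. Alternatives were the ratios as deposited, centring on the median gene, a threshold of 0.05, a filter at the counting error of 50 reads, a 1.5-fold rule, an exact binomial test on the recovered reads and scaling of the states by library totals.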

Additional observations from a re-analysis of the deposited data

Results flagged for a closer look

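For Srebf1 and Abcg1 the KO over WT ratio lay on opposite sides of 0 in the 2 states. Srebf1 was at −0.08 in stimulated and 0.07 in unstimulated cells, a difference of −0.15. Abcg1 was at −0.05 and 0.00, a difference of −0.06. Neither gene was called in either state, and the difference between states was not tested, since each group is 1 library.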

How the results depend on the processing

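No paired analysis was possible because each group is 1 library. Of 40 single-gene values under another centring, 37 kept their direction. The 3 that turned did so with the ratios as deposited, which are not corrected for depth: Nr1h3 to 0.12 and Lpl to 0.14 in unstimulated cells and Msr1 to −0.02 in stimulated cells. As deposited, the median difference between states was −0.275 in place of −0.048, since the depth ratios of the states enter it. At 1.5-fold, 0 of the 6 calls in stimulated and 0 of the 5 in unstimulated cells were left. With the exact binomial test, added after seeing the data, 6 genes were called in stimulated and 5 in unstimulated cells. A threshold of 0.05 added 1 gene in unstimulated cells. Depth limits calls of genes with few reads: Mylip at −0.28 ± 0.083 was not called in unstimulated cells, and Abca1 at −0.24 ± 0.022 was. The spread between cultures is covered by no interval given here. Leaving out a library would leave no comparison, so none was run.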
